A study of Mus musculus with 6 samples.

Results

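The genes described here are the coagulation factors, the enzymes and regulators of fibrinolysis (the breakdown of clots), and the plasma serpins. They are 46 mouse genes given as a list of symbols, each of which matched 1 Ensembl identifier among the 55487 gene rows of the count files. The data are RNA sequencing counts from hepatocytes, the liver cells that make most plasma proteins, with 3 libraries from mice homozygous for AEG-1-C75S and 3 from AEG-1-WT mice. AEG-1 is the protein of the mouse gene *Mtdh*, and C75S puts a serine at the cysteine that is otherwise palmitoylated. All mice were born to heterozygous parents and were 6 to 8 weeks old, the RNA of both groups was taken 48 h after the cells were isolated, and every library has the treatment label Control. The labels name no transgene, promoter or Cre. Nothing in them ties each library to a mouse of its own, so n counts libraries and p-values measure the spread between these libraries, which may be technical.

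Clotting is a chain of proteases made as inactive precursors, most of them in hepatocytes. Tissue factor (F3) with factor VII starts reactions that lead through factors IX and X to thrombin (F2), which cuts fibrinogen into fibrin. Separately, factor XII with plasma kallikrein starts reactions that reach factors IX and X through factor XI. Antithrombin, protein C, protein S and tissue factor pathway inhibitor hold this chain back, plasmin dissolves fibrin, and α2-antiplasmin restrains plasmin. Serpins are inhibitors that trap a protease through an exposed reactive loop, although some members of the family, such as the hormone carriers SERPINA6 and SERPINA7, inhibit no protease.

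The libraries held 16944723 to 21044292 counts on genes in the reverse-strand column, with the fewest in C75S replicate 1. Values are CPM, a gene's counts divided by the library's total after TMM scaling, times 1000000. A gene with no read in a library could have a level of up to 0.142 to 0.172 CPM, the value of 3 counts, which covers counting error only. Marker genes were looked at in the same libraries. Summed CPM of the 8 hepatocyte markers, most of it albumin, was 63220 to 75450 in C75S and 71140 to 78770 in WT, with the lowest value in C75S replicate 1. *Cyp2e1* was the called gene of that list, higher in C75S (adjusted p in edgeR = 0.00908), and 1 of its genes, *Serpina1c*, is also a member. The 10 endothelial markers summed to 34.1 to 45.2 CPM in C75S and 33.0 to 42.9 in WT. Most of that sum was *Stab2*, at 20.5 to 32.8 CPM with overlapping genotypes. *Pecam1*, *Lyve1* and *Kdr*, at 0.49 to 3.80 CPM, were higher in every C75S library than in any WT library (log2 differences of 0.70, 0.845 and 0.685). The other tested endothelial markers overlapped, and none of the 7 tested was called. The 8 stellate cell markers summed to 58.4 to 75 CPM in C75S and 72.3 to 94.2 CPM in WT. Most of the stellate sum was *Reln* (adjusted p = 0.394), while the called gene of that list, *Acta2*, was higher in C75S, at a mean of 4.65 CPM against 2.62 CPM (adjusted p in edgeR = 0.0255). The 8 Kupffer cell and macrophage markers summed to 96.4 to 140.1 and 102.6 to 134.3 CPM, nearly all of it *Cd68*, while *Adgre1* had 1 read in all 6 libraries together and *Clec4f* had 4. *Marco* had 6 reads in each C75S library and 1, 0 and 2 in WT, too few to be tested. The 6 cholangiocyte markers summed to 143.7 to 197 CPM in C75S and 121.7 to 133.3 CPM in WT. Most of the cholangiocyte sum was *Spp1*, at 105 to 157 CPM in C75S and 83.9 to 96.5 CPM in WT (adjusted p in edgeR = 0.235). *Krt19* was the called gene of that list, higher in C75S (adjusted p in edgeR = 0.00151). *Sox9* and *Krt7* overlapped between genotypes, and *Cftr* had no read. *Epcam* went the other way, with 0, 1 and 2 reads in C75S and 12, 3 and 4 in WT, and was not tested. Of the 6 platelet and megakaryocyte markers 4 had no read in any library. In such bulk libraries, fewer cells of a type and less RNA per cell cannot be told apart.

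Of the 46 genes, 44 passed the filter on low counts, and 8 of these were called different between the genotypes, meaning that edgeR's quasi-likelihood test gave p under 0.05 after Benjamini-Hochberg adjustment over all 12741 genes tested. That is 18.2% of the tested members, beside 3.11% of all tested genes. *Fga*, *Fgb*, *Fgg*, *F3*, *Plg*, *Plaur* and *Serpina6* were higher in C75S, where 1.74% of all tested genes were called higher, and *F12* was lower, where 1.37% were. The 3 fibrinogen genes share a locus, so they are not 3 independent observations, and 5 of the 41 other tested members were called. The median log2 fold change of the 44 members was 0.07, beside 0.00 (-0.003) over all tested genes, and 25 members lay above 0. The libraries of the genotypes did not overlap in 13 members (29.5%), beside 18.0% of all tested genes. C75S was the higher side in 10 of these (9.02% of all tested genes) and the lower in 3 (8.96%). Summed over the 46 members, the level was 13970 to 15443 CPM in C75S and 14460 to 14715 CPM in WT, so the family's share of the RNA overlapped between genotypes. The members were listed with earlier results of these data known, so these counts describe the list and test nothing about it.

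**Figure D1:**
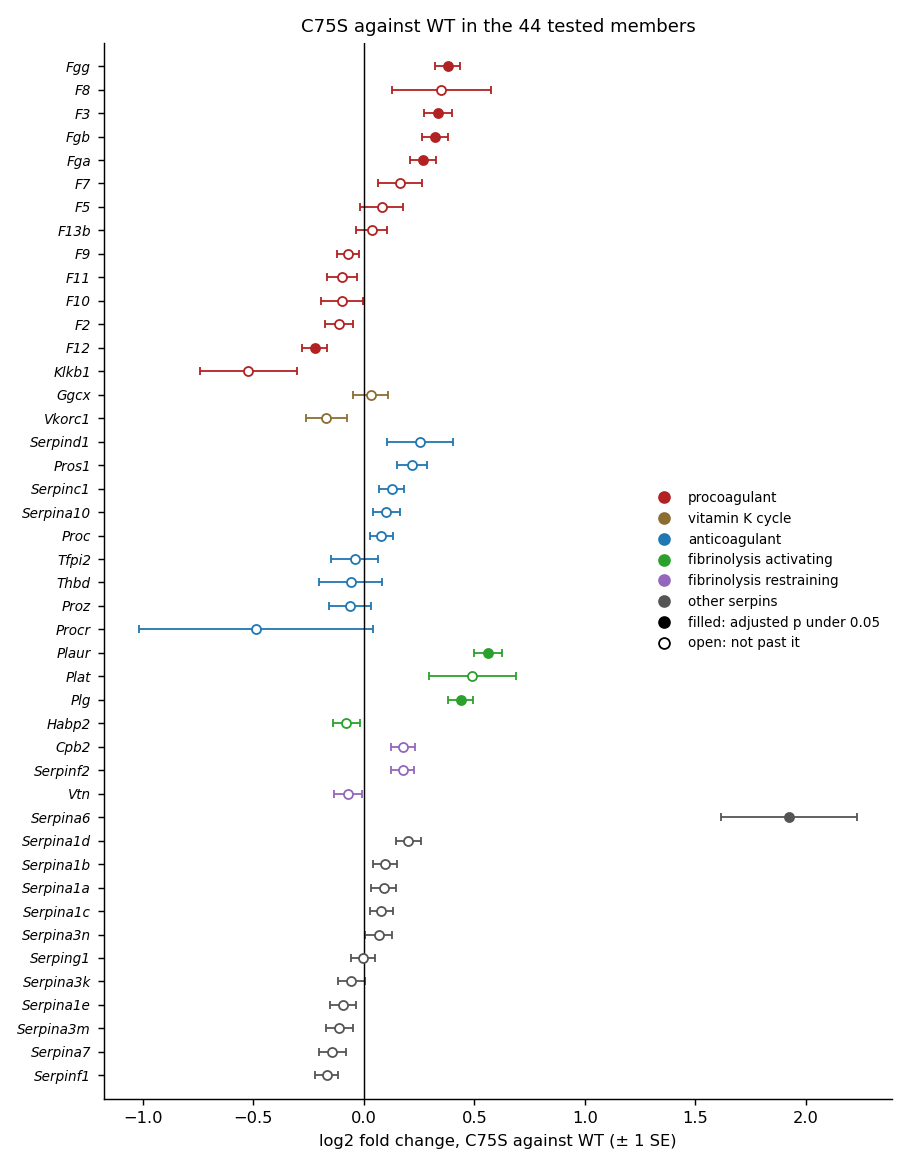
Log2 fold change of C75S against WT (x axis, ± 1 SE from edgeR) for each of the 44 tested members (y axis), coloured by role, with filled points for an adjusted p-value under 0.05. The filled points to the right of 0 are *Fgg*, *F3*, *Fgb*, *Fga*, *Plaur*, *Plg* and *Serpina6*, and the one to the left is *F12*, while every anticoagulant point is open.

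On the procoagulant side, 5 of the 14 genes passed the test, 4 higher and 1 lower. The 3 chains of fibrinogen, the soluble protein that thrombin turns into fibrin, were each higher in C75S. *Fga* (α chain; ENSMUSG00000028001, chromosome 3, plus strand, 83026076 to 83033627, GRCm38) was measured at 439.7, 523 and 472 CPM in C75S replicates 1 to 3 and 408, 379 and 405 CPM in WT replicates 1 to 3. *Fgb* (β chain; ENSMUSG00000033831, chromosome 3, minus strand, 83040141 to 83049863) was measured at 1594, 1764 and 1592 CPM in C75S replicates 1 to 3 and 1340.5, 1259 and 1360.3 CPM in WT replicates 1 to 3. *Fgg* (γ chain; ENSMUSG00000033860, chromosome 3, plus strand, 83007724 to 83015049) was measured at 321, 376 and 348 CPM in C75S replicates 1 to 3 and 273, 255 and 276 CPM in WT replicates 1 to 3. For each chain the lowest C75S library lay above the highest WT library, C75S replicate 2 was the highest of the 6 libraries and WT replicate 2 the lowest. *Fga* rose from a WT mean of 397 ± 16.2 CPM to a C75S mean of 478 ± 42.0 CPM (± SD, n = 3 libraries per genotype), a log2 difference of 0.27 with SE 0.06 (adjusted p in edgeR = 0.00852). *Fgb* rose from a WT mean of 1320.0 ± 53.6 CPM to a C75S mean of 1650.0 ± 98.5 CPM, a log2 difference of 0.32 with SE 0.06 (adjusted p in edgeR = 0.00112). *Fgg* rose from a WT mean of 268 ± 11.1 CPM to a C75S mean of 348 ± 27.2 CPM, a log2 difference of 0.38 with SE 0.06 (adjusted p in edgeR = 0.000133). All 3 chains passed the test. These are rises of 20.4%, 25.0% and 30.1%. *Fga* did not pass without C75S replicate 2 (0.20, edgeR adjusted p = 0.078) or without WT replicate 2 (0.23, adjusted p = 0.1), the libraries at the 2 ends of its range, while *Fgb* and *Fgg* kept their calls in all 15 alternative fits. The summed fibrinogen level was 2355, 2662 and 2413 CPM in C75S and 2022, 1893 and 2041 CPM in WT. Per kilobase of merged exons, the scale on which levels of different genes are compared here, *Fgb* stood at 433 ± 25.8 CPM in C75S and 346 ± 14.1 in WT, above *Fga* at 159 ± 14.0 and 132 ± 5.39 and *Fgg* at 166 ± 13 and 128 ± 5.30. The ratio of *Fgb* to *Fga* on this scale was 2.66 to 2.86 in C75S and 2.59 to 2.65 in WT, and that of *Fgg* to *Fga* 1.03 to 1.06 and 0.96 to 0.979.

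**Figure D2:**
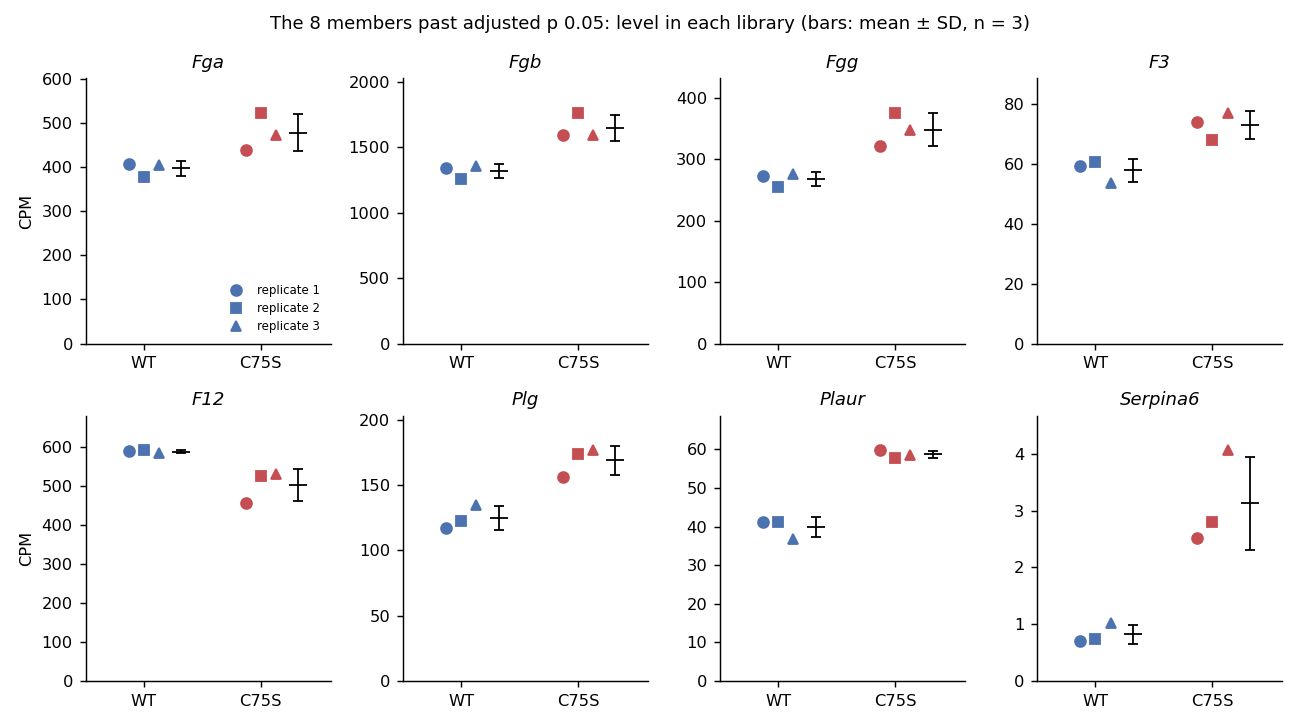
CPM (y axis, from 0) of the 8 members with an adjusted p-value under 0.05 in the 3 WT and 3 C75S libraries, one symbol per replicate number, with the mean and SD of each genotype beside the points. In every panel the genotypes do not overlap, the C75S points lying above the WT points except for *F12*, where they lie below.

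The fibrinogen genes lie together within 42140 bases of chromosome 3, *Fgg* and *Fga* on the plus strand and *Fgb* on the minus strand. Because these neighbours moved together, the 300 bases around each start (250 before and 50 after, RefSeq, GRCm38.p6), read 5′ to 3′ along the gene, are printed, with matches to 4 motifs in capitals on either strand. The motifs were chosen with these sequences in view: CTGGGAA (the type II interleukin-6 response element of acute phase genes), GTTAAT (a half-site of the liver factor HNF1), TTGCNNAA (C/EBP factors) and TTCNNNGAA (STAT factors). The windows are chr3:83025903-83026202 on the plus strand for *Fga*, chr3:83049814-83050113 on the minus strand for *Fgb* and chr3:83007474-83007773 on the plus strand for *Fgg*.
Fga: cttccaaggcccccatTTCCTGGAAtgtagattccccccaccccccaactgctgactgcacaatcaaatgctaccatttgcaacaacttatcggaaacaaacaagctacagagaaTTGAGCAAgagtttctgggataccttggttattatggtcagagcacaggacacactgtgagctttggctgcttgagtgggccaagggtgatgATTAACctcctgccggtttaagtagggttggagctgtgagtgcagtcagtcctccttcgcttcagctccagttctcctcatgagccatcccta
Fgb: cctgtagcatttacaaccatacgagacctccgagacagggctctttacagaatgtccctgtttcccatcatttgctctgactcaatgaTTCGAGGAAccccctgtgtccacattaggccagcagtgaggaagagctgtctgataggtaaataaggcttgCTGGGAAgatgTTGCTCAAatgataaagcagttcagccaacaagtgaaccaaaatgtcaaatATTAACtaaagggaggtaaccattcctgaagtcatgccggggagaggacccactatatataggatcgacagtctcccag
Fgg: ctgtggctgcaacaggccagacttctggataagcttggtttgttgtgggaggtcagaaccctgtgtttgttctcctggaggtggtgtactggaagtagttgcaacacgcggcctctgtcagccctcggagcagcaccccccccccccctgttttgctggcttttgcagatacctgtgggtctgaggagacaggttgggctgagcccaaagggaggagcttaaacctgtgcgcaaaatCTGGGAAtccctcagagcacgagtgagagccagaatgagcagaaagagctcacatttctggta
CTGGGAA was found in the *Fgb* window, its first base 91 bases before the start, and in the *Fgg* window, 13 bases before it. The HNF1 half-site was found in the windows of *Fga* and *Fgb* on the other strand (ATTAAC). Both windows also held a C/EBP match, on the other strand in *Fga* and on the printed strand in *Fgb*, and a STAT match. None of these 3 motifs was found in the *Fgg* window. No matches overlapped each other in these 3 windows. Among all 32851 promoters of the table, 11.1% hold CTGGGAA, 7.1% GTTAAT, 10.8% TTGCNNAA and 8.3% TTCNNNGAA on either strand. Among the 40 promoters of the 36 members in the table, the shares are 15%, 40%, 42.5% and 12.5%. These promoters are not independent, as the near-identical *Serpina1* copies all hold the HNF1 half-site. *Tfpi2* and *Serpina7* also count more than once, with windows that overlap, although a further *Tfpi2* window (chr6:3968326-3968625) lies apart. A match is a run of letters and not a measured binding site.

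The starters of clotting moved in both directions. *F3* (tissue factor, the membrane receptor that begins clotting outside the vessel; ENSMUSG00000028128, chromosome 3, plus strand, 121723537 to 121735048) was measured at 74.2, 68.1 and 77.1 CPM in C75S replicates 1 to 3 and 59.4, 60.8 and 53.7 CPM in WT replicates 1 to 3. All 3 C75S libraries were above all 3 WT libraries, and *F3* rose from a WT mean of 58.0 ± 3.78 CPM to a C75S mean of 73.1 ± 4.61 CPM (± SD, n = 3 libraries per genotype), a log2 difference of 0.33 with SE 0.06 (adjusted p in edgeR = 0.00209). *F12* (factor XII, which starts the contact pathway; ENSMUSG00000021492, chromosome 13, minus strand, 55417958 to 55426793) was measured at 456, 525 and 531 CPM in C75S replicates 1 to 3 and 589, 592 and 584 CPM in WT replicates 1 to 3. The 3 WT libraries were within 8 CPM of each other and all above the C75S libraries, of which replicate 1 was the lowest. *F12* fell from a WT mean of 588 ± 3.94 CPM to a C75S mean of 504 ± 41.2 CPM, a log2 difference of -0.22 with SE 0.06 (adjusted p in edgeR = 0.0254). The call was lost when C75S replicate 1 was left out (-0.16, adjusted p = 0.156), which also had the lowest albumin, and without WT replicate 1, 2 or 3 (adjusted p = 0.0649, 0.129 and 0.0681). The part of hepatocyte content in this difference was not tested. *Klkb1* (plasma kallikrein, the partner of factor XII) was at 2.41, 2.7 and 2.30 CPM in C75S and 4.18, 3.07 and 3.44 CPM in WT, with no overlap between genotypes and a log2 difference of -0.52 with SE 0.22 (adjusted p in edgeR = 0.262), so it did not pass. In GENCODE M21, 43.2% of its exon bases also belong to *Gm45753* on the same strand. If the counting used gene models like these, reads there were ambiguous and not counted to either gene. The release used for the counts is not given in the sources used here, so the value is uncertain.

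The other 8 procoagulant genes did not pass the test, and in each the genotypes overlapped. Thrombin itself, *F2*, was at 872, 983 and 1063 CPM in C75S and 1003, 1101 and 1054 CPM in WT (-0.11, SE 0.06, edgeR adjusted p = 0.462). The vitamin K-dependent *F7*, *F9* and *F10* had log2 fold changes of 0.16, -0.07 and -0.10. *F11* stood at -0.10, the cofactor *F5* at 0.08, and *F13b*, the carrier subunit of the fibrin-crosslinking factor XIII, at 0.04. The cofactor *F8*, which in the liver is made mainly by sinusoidal endothelial cells, was near the bottom of the measured range at 3.39, 3.08 and 3.32 CPM in C75S and 3.09, 2.19 and 2.38 CPM in WT (0.35, SE 0.22). *Ggcx* and *Vkorc1*, the carboxylase and the reductase of the vitamin K cycle that activate several of these factors, did not pass either. *Ggcx* was at 30.3, 29.7 and 32.4 CPM in C75S and 32.4, 27.7 and 30.4 CPM in WT, with a 95% interval of the log2 fold change of -0.12 to 0.18. *Vkorc1* was at 18.8, 21.9 and 22.4 CPM in C75S and 21.4, 24.9 and 24.8 CPM in WT, with an interval of -0.35 to 0.01, and its value is uncertain in the same way, as 47.7% of its exon bases in GENCODE M21 are shared with *Gm21974*.

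On the inhibitor side, none of the 9 tested anticoagulant genes passed in edgeR's test, in DESeq2 or in limma-voom, and 2 had an unadjusted p-value under 0.05, *Pros1* and *Serpinc1*. Their log2 fold changes ran from -0.49 (*Procr*) to 0.25 (*Serpind1*), with a median of 0.08. *Pros1* (protein S, cofactor of activated protein C) was at 53.5, 61.9 and 54.3 CPM in C75S and 49.0, 46.6 and 50.5 CPM in WT. Every C75S library lay above every WT library, with a log2 difference of 0.22 with SE 0.07 (adjusted p in edgeR = 0.0781) and a 95% interval of 0.09 to 0.35. *Serpinc1* (antithrombin, the main inhibitor of thrombin and factor Xa) was at 271, 305 and 313 CPM in C75S and 253, 275 and 288 CPM in WT. Here the genotypes overlapped, with a log2 difference of 0.13 with SE 0.06 (adjusted p in edgeR = 0.335). *Proc* (protein C, which inactivates factors Va and VIIIa) was at 206, 229 and 226 CPM in C75S and 203, 208 and 215 CPM in WT and *Serpina10* (the protein Z-dependent inhibitor of factor Xa) at 125, 153 and 138 CPM in C75S and 131, 124 and 134 CPM in WT. These were the 2 highest anticoagulant genes per kilobase of merged exons, and their 95% intervals of -0.02 to 0.18 and -0.02 to 0.22 include both no change and a small rise. *Serpinc1* came below them with merged exons of 8546 bases, while its longest transcript has 4970 bases, so its place depends on the length used. *Proz* (protein Z), *Serpind1* (heparin cofactor II), *Tfpi2*, *Thbd* (thrombomodulin, the thrombin receptor of endothelium) and *Procr* (the endothelial protein C receptor) overlapped between genotypes. *Tfpi* had 3 to 8 reads in each library and was not tested. The summed anticoagulant level was 780.5, 902 and 865 CPM in C75S and 772, 779 and 839 CPM in WT. The summed procoagulant level, fibrinogen included, was 4312 to 4828 CPM in C75S and 4249 to 4373 CPM in WT, so both sums overlapped between genotypes. Whether the procoagulant and inhibitor sides differ from each other was not tested.

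In fibrinolysis, 2 of the 4 tested activating genes passed the test, both higher in C75S, and none of the 3 restraining genes passed. *Plg* (plasminogen, the precursor of plasmin; ENSMUSG00000059481, chromosome 17, plus strand, 12378608 to 12419385) was measured at 156, 174 and 176 CPM in C75S replicates 1 to 3 and 117, 123 and 135 CPM in WT replicates 1 to 3. The genotypes did not overlap, and *Plg* rose from a WT mean of 125 ± 9.05 CPM to a C75S mean of 169 ± 10.9 CPM (± SD, n = 3 libraries per genotype), a log2 difference of 0.44 with SE 0.06 (adjusted p in edgeR = 3.56e-05), or 1.35-fold. *Plaur* (the receptor that holds urokinase at the cell surface; ENSMUSG00000046223, chromosome 7, plus strand, 24462484 to 24475968) was measured at 59.8, 57.9 and 58.6 CPM in C75S replicates 1 to 3 and 41.3, 41.3 and 36.8 CPM in WT replicates 1 to 3. The 3 C75S libraries lay within 2 CPM of each other and above all WT libraries, and *Plaur* rose from a WT mean of 39.8 ± 2.58 CPM to a C75S mean of 58.8 ± 0.94 CPM, a log2 difference of 0.56 with SE 0.06 (adjusted p in edgeR = 4.46e-06), or 1.48-fold. Both kept their calls in all 15 alternative fits. *Plaur* is also expressed by macrophages. Of the 8 markers of those cells 2 were tested and none was called, *Cd68* stood at 94.9 to 138 CPM with overlapping genotypes, *Adgre1* and *Clec4f* were at or near 0, and *Marco* had more reads in every C75S library than in any WT library. Their part in the *Plaur* result was not tested.

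The activators of plasminogen were scarce. *Plat* (tissue-type activator) was at 10.6, 7.21 and 5.19 CPM in C75S and 5.74, 5.21 and 5.34 CPM in WT. Only C75S replicates 1 and 2 stood above the WT libraries, and the difference of 0.49 (SE 0.20, edgeR adjusted p = 0.25) was 0.20 without C75S replicate 1 and 0.70 without C75S replicate 3, where it passed (adjusted p = 0.027). *Plau* (urokinase) had 5, 1 and 5 reads in C75S and none in the WT libraries, too few to be tested. *Habp2* (factor VII-activating protease) was at 104, 121 and 110.2 CPM in C75S and 118, 110.3 and 126 CPM in WT, with overlapping genotypes and a 95% interval of -0.20 to 0.04. Among the restraining genes, *Serpinf2* (α2-antiplasmin) was at 173, 196 and 180.3 CPM in C75S and 159, 162 and 166 CPM in WT. All C75S libraries were above all WT libraries, but a log2 difference of 0.18 with SE 0.05 (adjusted p in edgeR = 0.0653) did not pass. *Cpb2* (carboxypeptidase B2, which removes plasmin binding sites from fibrin) was at 225, 199 and 228 CPM in C75S and 199, 188 and 189 CPM in WT, with overlapping genotypes and a log2 difference of 0.18 with SE 0.05 (adjusted p in edgeR = 0.0763). Both crossed the threshold in 3 of 15 alternative fits. *Vtn* (vitronectin, an adhesive plasma glycoprotein) was the highest fibrinolysis gene per kilobase and was at 751, 869 and 855 CPM in C75S and 797, 869 and 935 CPM in WT, with an interval of -0.20 to 0.05.

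**Figure D3:**
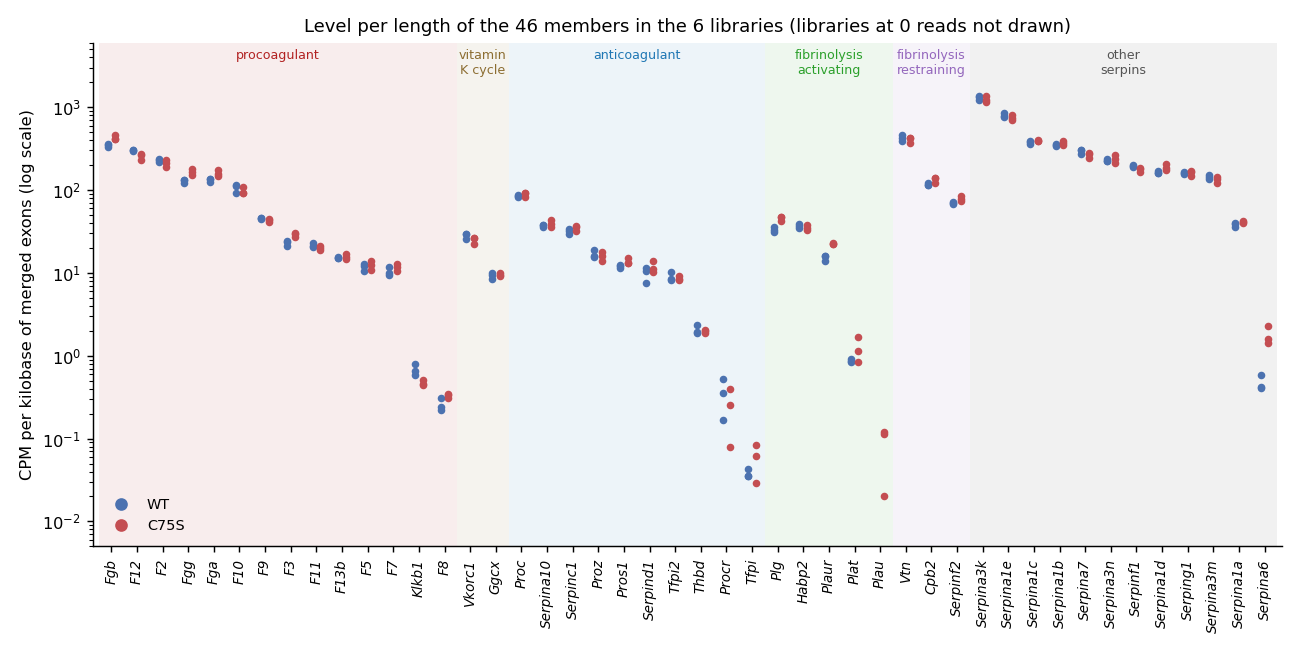
CPM per kilobase of merged exons (y axis, log scale) of the 46 members (x axis, grouped by role) in each WT and C75S library, with libraries at 0 reads left out. *Serpina3k* is the highest member, *Plau* and *Tfpi* are the lowest, and the genotypes lie close together in most genes.

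Of the 12 other serpins, 1 passed the test. *Serpina6* (corticosteroid-binding globulin, the plasma carrier of glucocorticoids; ENSMUSG00000060807, chromosome 12, minus strand, 103646630 to 103657212) was measured at 2.53, 2.80 and 4.07 CPM in C75S replicates 1 to 3 and 0.71, 0.73 and 1.02 CPM in WT replicates 1 to 3. These values rest on 44, 59 and 76 reads in C75S and 15, 15 and 21 in WT, and every C75S library was more than 2 times every WT library. *Serpina6* rose from a WT mean of 0.82 ± 0.17 CPM to a C75S mean of 3.13 ± 0.82 CPM (± SD, n = 3 libraries per genotype), a log2 difference of 1.92 with SE 0.31 (adjusted p in edgeR = 0.00034), or 3.80-fold, which is rank 8 from the top by log2 fold change among the 12741 tested genes. It kept its call in all 15 alternative fits, with estimates of 1.69 to 2.11. Per kilobase it stayed far below the abundant serpins, at 1.78 ± 0.47 CPM in C75S and 0.47 ± 0.098 in WT. *Serpina7* (thyroxine-binding globulin, another hormone carrier) was at 594, 679 and 671 CPM in C75S and 737, 662 and 748 CPM in WT. Its genotypes overlapped, with a log2 difference of -0.14 with SE 0.06 (adjusted p in edgeR = 0.262).

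*Serpina6* lies on chromosome 12 in a run of serpin genes that holds 10 of the members. *Serpina10* (103614786 to 103631444) and the 5 *Serpina1* copies (103728156 to 103958975) lie with it on the minus strand, and *Serpina3k*, *Serpina3m* and *Serpina3n* (104338486 to 104414329) on the plus strand. *Serpina3k* and a transcript of *Serpina3m* begin at the same base and share 2.92% and 3.49% of the exon bases of each gene. None of these 9 other members passed the test, and their log2 fold changes ran from -0.11 to 0.20. *F7*, *F10* and *Proz*, close together on chromosome 8 (13026034 to 13076026), likewise held no called gene.

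The *Serpina1* genes are 5 near-identical copies of the α1-antitrypsin type, the type of the main plasma inhibitor of neutrophil elastase. The copies differ in the region of the reactive loop, and which protease each of them inhibits was not measured. Their coding sequences are 96.29% to 98.47% identical in pairs. The 60 coding bases that differ most, at 18 positions, lie in the last coding exon of each copy and in the region of the reactive loop. They are printed 5′ to 3′ along the gene from the GENCODE M21 transcripts (GRCm38), with the positions that vary among the copies in capitals, because reads over such bases are what the counting could place. The stretches are chr12:103853757-103853816 for *Serpina1a*, chr12:103728324-103728383 for *Serpina1b*, chr12:103895094-103895153 for *Serpina1c*, chr12:103763762-103763821 for *Serpina1d* and chr12:103947100-103947159 for *Serpina1e*, all on the minus strand.
Serpina1a: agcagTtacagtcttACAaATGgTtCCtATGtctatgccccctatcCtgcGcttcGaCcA
Serpina1b: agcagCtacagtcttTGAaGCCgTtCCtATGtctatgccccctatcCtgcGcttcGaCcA
Serpina1c: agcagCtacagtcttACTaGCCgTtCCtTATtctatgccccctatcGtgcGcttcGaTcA
Serpina1d: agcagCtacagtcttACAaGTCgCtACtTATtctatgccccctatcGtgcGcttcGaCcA
Serpina1e: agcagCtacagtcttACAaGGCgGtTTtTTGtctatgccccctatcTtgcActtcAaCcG
In the longest transcript of each copy, 35.6% (*Serpina1e*) to 74.2% (*Serpina1c*) of all 50-base words also occur in another gene's transcripts, and 14.8% to 58.5% of all 100-base words. Reads that map to several places were not counted, so the order of the copies also reflects how much of each is unique. As counted, *Serpina1e* was the highest copy per kilobase at 751 ± 58.1 CPM in C75S and 802 ± 43.4 in WT, and *Serpina1a* the lowest at 40.9 ± 0.98 and 38.4 ± 2.01. *Serpina1c* (376 ± 18.8 in WT) and *Serpina1b* (348 ± 9.54 in WT), are neighbours in that order and their WT libraries overlapped. *Serpina1e* was at 1194, 1132 and 1317 CPM in C75S and 1270.1, 1376 and 1243 CPM in WT, with overlapping genotypes and a 95% interval of -0.21 to 0.02. *Serpina1d* was at 240.3, 257 and 285 CPM in C75S and 223, 237 and 221 CPM in WT. Its C75S libraries were all above its WT libraries, and with a log2 difference of 0.20 with SE 0.06 (adjusted p in edgeR = 0.0519) it narrowly missed the threshold. It passed under upper-quartile scaling, with library sizes alone, without the filter, with the replicate block and without C75S replicate 1. With the 5 copies summed to 1 feature, the log2 fold change was 0.02 (SE 0.06, edgeR adjusted p = 0.924).

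The *Serpina3* genes, mouse relatives of α1-antichymotrypsin, share less of their sequence, with 6.9% to 19.1% of 50-base words found elsewhere. *Serpina3k* was the highest of the 46 members per kilobase, at 1256 ± 99.0 CPM in C75S and 1307 ± 71.7 in WT. Its level was 2403, 2544 and 2804 CPM in C75S and 2748, 2796 and 2520.2 CPM in WT, with overlapping genotypes and a 95% interval of -0.18 to 0.07. *Serpina3n*, an acute phase member, had a log2 fold change of 0.07 (SE 0.06) and *Serpina3m* of -0.11 (SE 0.06), both with overlap. *Serping1* (the C1 inhibitor, which also blocks factor XIIa and kallikrein) stood at 0.00 (-0.003, SE 0.05), with a 95% interval of -0.11 to 0.10. *Serpinf1* (pigment epithelium-derived factor) was at 386, 429 and 420.1 CPM in C75S and 475, 464 and 449 CPM in WT. All C75S libraries were below all WT libraries, but a log2 difference of -0.17 with SE 0.05 (adjusted p in edgeR = 0.0892) did not pass.

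A list of 36 further genes of the same pathways, with receptors and carriers, gives the surroundings. Of its 30 tested genes, 5 were higher and 1 lower in C75S, beside the 3.11% of all tested genes. *Hrg* (histidine-rich glycoprotein, which binds plasminogen and fibrinogen) was at 55.9, 65.1 and 67.1 CPM in C75S and 37.2, 42.9 and 40.1 CPM in WT, a log2 difference of 0.65 with SE 0.07 (adjusted p in edgeR = 3.74e-06). *Fgl1* (a fibrinogen-like hepatocyte protein) was at 212, 189 and 222 CPM in C75S and 156, 163 and 174 CPM in WT, a log2 difference of 0.34 with SE 0.06 (adjusted p in edgeR = 0.000858). *Anxa2* (a cell-surface receptor for plasminogen and its tissue-type activator) was at 783, 777 and 795 CPM in C75S and 629.7, 664 and 644 CPM in WT, a log2 difference of 0.28 with SE 0.05 (adjusted p in edgeR = 0.00136). These 3 genes had no overlap between genotypes and kept their calls in every alternative fit. *Thbs1* (thrombospondin) rose by 0.45 (SE 0.07, edgeR adjusted p = 0.000641), likewise without overlap and with its call kept in every alternative fit. *Kng1* (kininogen, cofactor of the contact pathway) rose by 0.23 (SE 0.05, adjusted p = 0.0155), a call lost without C75S replicate 2 or 3 or WT replicate 1 or 2 (adjusted p = 0.0637 to 0.104). *F2rl1* (a protease-activated receptor) was the lower gene, at 42.1, 40.3 and 43.0 CPM in C75S and 51.6, 47.8 and 48.2 CPM in WT. Its a log2 difference of -0.24 with SE 0.06 (adjusted p in edgeR = 0.0433) was lost with library sizes alone, under DESeq2 and without any 1 of the 6 libraries (adjusted p = 0.0688 to 0.199).

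**Figure D4:**
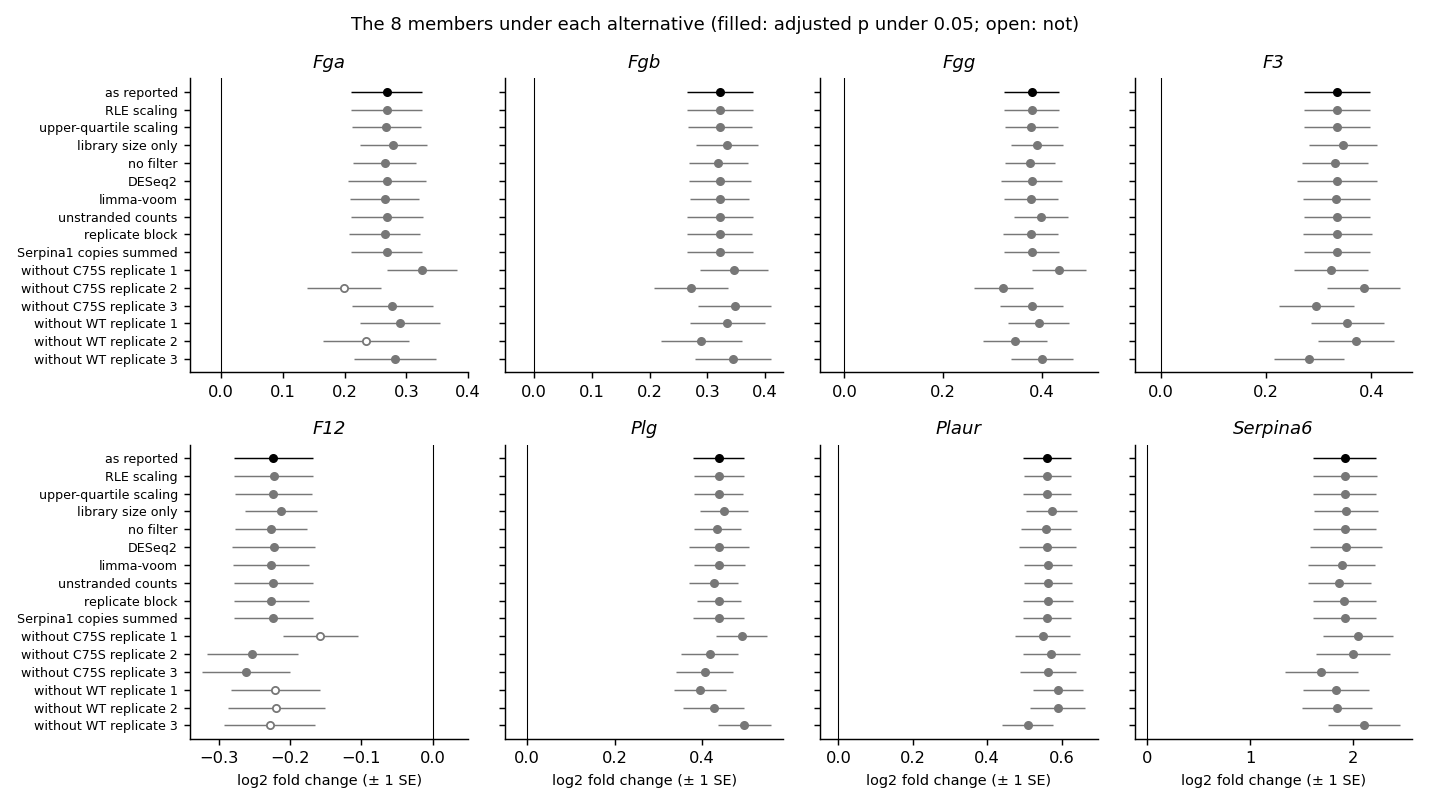
Log2 fold change of C75S against WT (x axis, ± 1 SE) of the 8 called members as reported (black) and in each of 15 alternative fits (grey, y axis), filled where the adjusted p-value was under 0.05. The open points belong to *Fga* (C75S replicate 2 or WT replicate 2 left out) and *F12* (C75S replicate 1 or any WT library left out), and no point changes sign.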

How the data were processed

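The deposited values are whole-number read counts per Ensembl gene, unstranded and for each strand, 1 file per library. Per the submitters' processing notes, Trim Galore 0.6.6, STAR 2.7.9a and edgeR 3.36.0 were used with mm10/GRCm38; the annotation release is not given in the sources used here. The reverse-strand counts (33.3 times the forward-strand total) were used and the 4 summary rows left out. Per the summary rows of the files, multimapping reads (17.98% to 18.54%) were kept apart from the gene counts, which lowers genes with copies.

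Genes were filtered with edgeR's filterByExpr (minimum count 10, minimum total 15), and TMM-scaled, and genotype was the single term of a robust, two-sided quasi-likelihood F-test (edgeR 4.0.16, R 4.3.3), with Benjamini-Hochberg adjustment over 12741 genes and a threshold of 0.05. Standard errors were derived from the log2 change and F, and 95% intervals from them. CPM per kilobase uses merged exons of GENCODE M21, the source of positions. The Serpina1 coding sequences were aligned with MAFFT 7.526. The procedure was tested on simulated data. It recovered 58.7% of 1.3-fold, 75.8% of 1.5-fold and 89.7% of 2-fold changes, and 4.17% to 6.37% of its calls were false. With no change simulated, 7 of 12589 genes were called. A member that did not pass may still differ by an amount within its own 95% interval. That interval of the log2 fold change was -1.52 to 0.55 for *Procr* and -0.11 to 0.10 for *Serping1*. Alternatives were RLE, upper-quartile and no scaling, no filter, DESeq2 1.42.0, limma-voom (limma 3.58.1), unstranded counts, a replicate block, the Serpina1 copies summed, and leaving out each library.

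The members, roles and lists were chosen with earlier results of these data known. Library values are given for members with an adjusted or unadjusted p-value under 0.05 and the 2 highest of each role per kilobase, and the called genes of the further list are named; 1 other gene of it is not reported here. *F2* and *F8* are given outside that rule, chosen after their values were seen.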

Additional observations from a re-analysis of the deposited data

How the results depend on the processing

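Of the 8 called members, 6 kept their call and direction in all 15 alternatives, and *Fga* and *F12* lost it only where a library was left out. Over 32 named genes and 478 pairs of gene and alternative, 445 kept direction and side of the threshold, 18 lost the call, 13 gained it and 2 turned direction. Those 2 were *Ggcx*, at -0.0079 without C75S replicate 3 and -0.0267 (the lowest with a library left out; the highest was 0.0857) without WT replicate 2. The summed *Serpina1* copies ran from -0.0084 (without C75S replicate 3) to 0.0515 with a library left out, turning also without WT replicate 3 (-0.0004). The count of procoagulant members called was 3 to 5 over those fits, with 3 without WT replicate 2, and that of other serpins 1 to 2. The count of other serpins was 2 under upper-quartile scaling and with library sizes alone, and 3 without the filter. The fibrinolysis count was 4 without the filter, against 2, with *Serpinf2* and *Cpb2* added. All genes called numbered 201 (without WT replicate 2) to 355 with a library left out, against 396, and 253 and 246 without C75S replicate 1 and WT replicate 3. These fits have fewer samples. Depth limits *Tfpi*, *Plau* and *Procr*, with at most 22 reads in a library.

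The genotypes share replicate numbers, but same-numbered libraries did not deviate together (correlations of 0.02, -0.04 and 0.03 for numbers 1 to 3). Correlations between differently numbered libraries were as close to none, from -0.04 (C75S replicate 1 with WT replicate 3) to 0.02 (C75S replicate 1 with WT replicate 2). With a replicate block 480 genes were called against 396, 10 members against 8, and 2 other serpins against 1, with *Cpb2* (adjusted p = 0.0468) and *Serpina1d* (0.0352) added.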
